A study of Mus musculus with 2 samples.

Results

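Transcripts of 6 genes of neurotrophin signalling were examined in the mouse cerebral cortex. They were the ligand genes Bdnf and Ntf3, the genes Ntrk2 (TrkB) and Ntrk3 (TrkC) for receptor tyrosine kinases, Ngfr for the p75 receptor, and Sort1 for the sorting receptor sortilin. They were selected by gene symbol from 55536 annotated genes, and every annotated transcript of each was followed. The material was total RNA of left cerebral cortex. It came from 2 females aged 25 days, 1 library per mouse, which form a single group with no treatment named. The mice were first-generation hybrids of the C57BL/6 and CAST strains (B6CASTF1/J), and 300 ng of RNA with ERCC spike-ins, synthetic control RNAs, entered each library. Both mice therefore carry a CAST allele of every autosomal gene, while the transcript models and sequences are those of C57BL/6. The effect of that difference on the counts was not tested. The labels give the mice separate animal numbers but the same donor identifier. They were treated as separate animals, and otherwise the spread between libraries covers preparation alone.

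Neurotrophins are secreted growth factors that are made as longer precursors and cleaved. In the cortex BDNF supports dendrite growth, synapse strength and plasticity. Mature BDNF binds TrkB, NT-3 (the product of Ntf3) binds TrkC, and the binding of a full-length receptor starts signalling through its intracellular kinase. Truncated receptors bind the ligand with the same outer part but lack the kinase, and the T1 form of TrkB is the main TrkB form of astrocytes. Precursor neurotrophins bind p75 together with sortilin, and sortilin also sorts BDNF into vesicles. Bdnf has many promoters, each with its own 5′ exon spliced to a common 3′ exon that carries the protein.

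The libraries held 31301126 and 27182336 expected counts, and 12933 nuclear protein-coding genes had a TPM (a level per transcript length, scaled to a fixed total per library) of at least 1 in both. Each library was quantified in 2 ways by the authors, once from alignments and once directly from the reads (FASTQ-based). Levels are alignment-based TPM unless another measure is named, with mean ± SD over the 2 libraries (n = 2). No test between conditions exists for 1 group, and with 1 library per animal no p-value is given. All 9 neuron markers examined were detected, among them Snap25 at 1101 and 1126 TPM and Slc17a7, the glutamate transporter of cortical excitatory neurons, at 596 and 639 TPM. All 11 striatal neuron markers were detected too, with summed TPM of 582 and 391.

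The sequences that set the transcripts apart are given first, because the quantification of each form rests on them. They are read 5′ to 3′ from the GENCODE M21 transcripts of build mm10, in lower case, with capitals for the bases that the compared form lacks. Truncated and full-length TrkB share 464 codons and then part. The T1 end of Ntrk2-202 lies at chr13:58932023-58932060 and the end of Ntrk2-205 at chr13:58878339-58878424, both on the plus strand, and each closes with a stop codon. For the full-length Ntrk2-201 the first 45 bases after the parting point are capitals, from chr13:58985802-58985846.
Ntrk2-202: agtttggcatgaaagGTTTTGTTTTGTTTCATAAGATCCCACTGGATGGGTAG
Ntrk2-205: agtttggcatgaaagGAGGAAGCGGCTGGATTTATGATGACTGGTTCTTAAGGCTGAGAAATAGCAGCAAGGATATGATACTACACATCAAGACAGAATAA
Ntrk2-201: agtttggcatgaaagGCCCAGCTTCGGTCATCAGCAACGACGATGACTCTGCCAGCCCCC
The T1 end adds 38 bases, against 86 in Ntrk2-205, before the reading frame closes.

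For TrkC the forms part after 528 shared codons. The coding end of the truncated Ntrk3-202 spans 2 exons on the minus strand, chr7:78304292-78304426 and chr7:78302629-78302747. They are given in order, each with bases of its neighbour in lower case, followed by the first 45 bases of the full-length Ntrk3-201 after the parting point (chr7:78260370-78260414).
Ntrk3-202, first exon: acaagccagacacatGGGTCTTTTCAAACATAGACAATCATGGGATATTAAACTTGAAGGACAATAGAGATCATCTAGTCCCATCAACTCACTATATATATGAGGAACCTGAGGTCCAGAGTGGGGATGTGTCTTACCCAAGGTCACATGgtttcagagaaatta
Ntrk3-202, second exon: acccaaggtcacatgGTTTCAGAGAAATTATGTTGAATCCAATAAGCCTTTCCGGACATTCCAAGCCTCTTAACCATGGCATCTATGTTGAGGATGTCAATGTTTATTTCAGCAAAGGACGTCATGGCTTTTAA
Ntrk3-201: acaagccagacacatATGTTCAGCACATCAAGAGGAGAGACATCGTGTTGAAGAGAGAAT
Full-length TrkC also comes with inserts in its kinase region. Ntrk3-205 carries 42 extra bases, or 14 codons (chr7:78204103-78204144), and Ntrk3-206 carries these and 75 further bases, or 25 codons, just ahead of them (chr7:78229487-78229561). Both inserts keep the reading frame, and for Ntrk3-206 the capitals mark the 75 bases.
Ntrk3-205: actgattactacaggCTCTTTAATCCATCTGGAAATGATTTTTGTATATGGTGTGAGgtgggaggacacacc
Ntrk3-206: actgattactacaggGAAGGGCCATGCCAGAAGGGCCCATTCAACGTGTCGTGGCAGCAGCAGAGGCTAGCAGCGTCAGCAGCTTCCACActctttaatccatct
Sort1-203 differs from Sort1-201 by an in-frame exon of 99 bases, or 33 codons, on the plus strand (chr3:108355472-108355570).
Sort1-203: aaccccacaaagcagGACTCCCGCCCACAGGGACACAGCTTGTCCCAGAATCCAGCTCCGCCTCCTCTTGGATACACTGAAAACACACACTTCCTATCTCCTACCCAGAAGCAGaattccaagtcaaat

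The Bdnf transcripts share the exon that encodes the protein, so they are told apart by the exons before it, mainly the first. Bdnf-204 also has a middle exon (chr2:109709587-109709661), which lies inside the first exon of Bdnf-202. The 11 annotated transcripts, all on the plus strand of chromosome 2 and all ending at 109727007, fall into 8 classes whose first exons overlap. The classes are numbered here by position from the 5′ end of the gene, since the files carry no exon numerals. Most encode 249 codons. Bdnf-201 (class 1) starts its reading frame in its own first exon and runs through 7 more codons of the common exon that most others leave untranslated, for 257 codons in all. Bdnf-202 (class 8) starts with 33 codons in its own first exon, reads through the same 7, and has 289. The coding start of Bdnf-201 at the common exon (chr2:109723382-109723402) and that of Bdnf-202 (chr2:109709563-109709661) show this difference. Capitals mark the bases at these coordinates alone; the lower-case start of the Bdnf-201 line and the lower-case end of the Bdnf-202 line are likewise not coding in the 249-codon forms.
Bdnf-201: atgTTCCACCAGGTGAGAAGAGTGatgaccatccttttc
Bdnf-202: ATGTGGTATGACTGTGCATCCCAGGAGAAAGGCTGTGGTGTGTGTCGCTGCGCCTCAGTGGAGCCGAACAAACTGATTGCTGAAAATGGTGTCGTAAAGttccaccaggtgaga

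RefSeq (GRCm38.p6) gave a start-site window for 4 of the 6 genes and 7 windows for Bdnf, of which 6 sit at the start of a class. The 150 bases upstream of the start are shown for class 1 (chr2:109674550-109674699) and class 4 (chr2:109692286-109692435), on the plus strand, because these classes led the gene in 1 alignment-based library each.
Class 1: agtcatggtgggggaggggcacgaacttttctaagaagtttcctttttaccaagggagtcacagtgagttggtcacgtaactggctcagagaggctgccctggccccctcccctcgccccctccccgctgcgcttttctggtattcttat
Class 4: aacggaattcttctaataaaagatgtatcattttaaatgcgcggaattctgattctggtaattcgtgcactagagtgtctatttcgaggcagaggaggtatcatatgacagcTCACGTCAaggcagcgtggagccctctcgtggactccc
On both strands of the 300-base windows, 5 motifs were searched: the full cAMP response element TGACGTCA, its variant TCACGTCA, the shorter core TGACG, the TATA box TATAAA and the E-box CACGTG. The class 4 window held TCACGTCA, in capitals, which begins 38 bases upstream of the start. Elements of this kind are bound by the activity-dependent factor CREB. Of 32851 RefSeq windows of the same length, 0.441% held TCACGTCA. The class 4 window also matched TGACG on the minus strand, inside the same 8 bases, a motif found in 20.8% of windows. TGACGTCA was in 1.79%, TATAAA in 13.6% and CACGTG in 7.15% of windows, and none of the 5 motifs matched another of the 7 Bdnf windows. Classes 2 and 6 had no window at their start, so the bases upstream of them were not searched.

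Among the 6 genes Ntrk2, Sort1 and Ntrk3 were abundant, Bdnf was intermediate, and Ntf3 and Ngfr were low. Ntrk2 (chr13:58806569-59133970) was highest, with 182.7 and 187.3 TPM (185 ± 3.27), above 97.3% of the detected protein-coding genes. Sort1 (chr3:108284082-108361511) had 127.7 and 129.6 TPM (129 ± 1.35). Ntrk3 (chr7:78175959-78738012) had 69.4 and 76.2 TPM (72.8 ± 4.79). These 3 receptor genes were thus in the upper part of the range, Sort1 above 95.1% and Ntrk3 above 89.1% of detected genes. Bdnf (chr2:109674700-109727007) had 12.4 and 10.3 TPM (11.3 ± 1.52), above 39.5% of detected genes. Ntf3 (chr6:126101412-126166910) had 1.16 and 1.33 TPM (1.25 ± 0.120), and rested on 30 and 29 expected counts. Ngfr (chr11:95568818-95587735) had 0.73 and 0.34 TPM (0.535 ± 0.276), from 51 and 20 expected counts, and missed the detection limit of 1 TPM in both libraries. In whole tissue a low level cannot tell fewer cells that make an RNA from less of it per cell.

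The order was the same in both libraries and both quantifications. Ntrk2 exceeded Sort1 by 1.43-fold and 1.45-fold, and Sort1 exceeded Ntrk3 by 1.84-fold and 1.70-fold. Ntrk3 exceeded Bdnf by 5.59-fold and 7.43-fold, and Bdnf exceeded Ntf3 by 10.7-fold and 7.71-fold. The ranges of the 2 libraries did not overlap for any neighbours in this order. The lowest step was the least firm: Ntf3 exceeded Ngfr by 1.59-fold in replicate 1 and 3.91-fold in replicate 2, and in replicate 1 the deposited interval of Ntf3 (0.802 to 1.62) overlapped that of Ngfr (0.533 to 0.924). In CPM, counts divided by scaled library size with no length correction, Ngfr (1.66 and 0.729) was above Ntf3 (0.974 and 1.06) in replicate 1 and below it in replicate 2. FASTQ-based TPM were higher for each gene, with 276.2 and 275.6 for Ntrk2, 80.9 and 95.01 for Ntrk3 and 17.4 and 14.1 for Bdnf. The median detected protein-coding gene was likewise 1.55 and 1.52 times higher in that quantification, so levels should be compared within 1 of them.

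**Figure D1:**
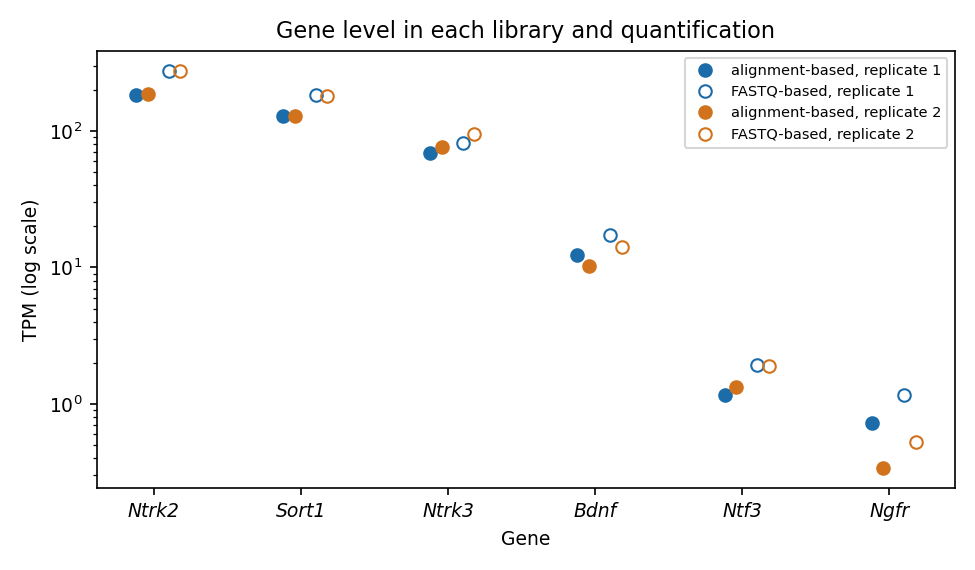
TPM of the 6 genes on a log axis, with filled circles for the alignment-based and open circles for the FASTQ-based quantification and a colour for each library (no error bars, each point is 1 library). The genes keep their order from Ntrk2 near 185 TPM to Ngfr under 1 TPM, and the libraries lie furthest apart for Ngfr.

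Related ligands and receptors filled in this picture. Ntf5, which encodes NT-4, another ligand of TrkB, had 2 and 6 expected counts. Of the receptors that resemble sortilin, Sorl1 was the most abundant with 88.6 and 94.8 TPM. Sorcs1 had 19.4 and 18.7 TPM, Sorcs2 19.1 and 19.6, and Sorcs3 18.2 and 19.8. Sorcs1, Sorcs2 and Sorcs3 thus stood within 1 narrow band in which the libraries overlapped, below Sort1 and above Bdnf.

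Bdnf transcripts came mainly from 4 of the 8 classes. Class 1 (Bdnf-201, first exon of 640 nt) had 3.62 and 2.63 TPM, or 29.2% and 25.6% of the gene. Class 4 (Bdnf-209) had 2.84 and 3.31 TPM, or 22.9% and 32.3%. Class 6 (Bdnf-205) had 3.27 and 2.59 TPM, or 26.3% and 25.2%. These 3 classes thus held similar parts of Bdnf TPM, and of the 3 only class 4 had a higher level in replicate 2. Class 2 (Bdnf-210, Bdnf-207 and Bdnf-208) followed with 1.43 and 1.55 TPM, or 11.5% and 15.1%, nearly all of it in Bdnf-210.

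The remaining classes were low. Class 7 (Bdnf-203 and Bdnf-204) had 0.78 and 0.18 TPM and class 3 (Bdnf-206) had 0.33 and 0 TPM. Class 8 (Bdnf-202) had 0.14 and 0 TPM, and class 5 (Bdnf-211) was listed at 0 in both libraries. The deposited intervals showed how wide the uncertainty of the main transcripts was. They ran from 2.45 to 4.27 TPM in replicate 1 and 1.60 to 3.26 in replicate 2 for Bdnf-201. For Bdnf-209 they ran from 1.65 to 3.50 and from 1.89 to 3.90, and for Bdnf-205 from 2.07 to 3.91 and from 1.42 to 3.13. All 3 pairs overlapped between the libraries and with each other, so no order among classes 1, 4 and 6 could be read. As shares of estimated counts with exact binomial intervals, which treat estimated counts as reads and leave out the uncertainty of assignment, class 4 had 22.3% (19.9% to 25.1%) and 31.4% (28.0% to 34.9%). Class 1 had 30.7% (27.9% to 33.6%) and 27.0% (23.8% to 30.4%).

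The class shares changed with the quantification. In the FASTQ-based table class 1 led in both libraries with 34.6% and 32.8% of TPM. Class 6 stayed near its alignment-based share, at 26.4% and 23.4%. Class 4 had 5.98% in replicate 1 and 24.7% in replicate 2, and its FASTQ-based level of 1.04 TPM in replicate 1 lay below the deposited alignment-based interval. In the same library Bdnf-202 (class 8) took 3.89 TPM, 22.3% of the gene, where the alignment-based interval ended at 0.585 TPM. In replicate 2 Bdnf-202 was listed at 0 in both tables. The FASTQ-based share of class 4 and class 8 in replicate 1 was therefore found in neither the other table nor the other library. Class 2 had 9.79% and 19.1% there, and class 7, at 6.29% and 1.75% in the alignment-based table, had at most 0.0240%.

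**Figure D2:**
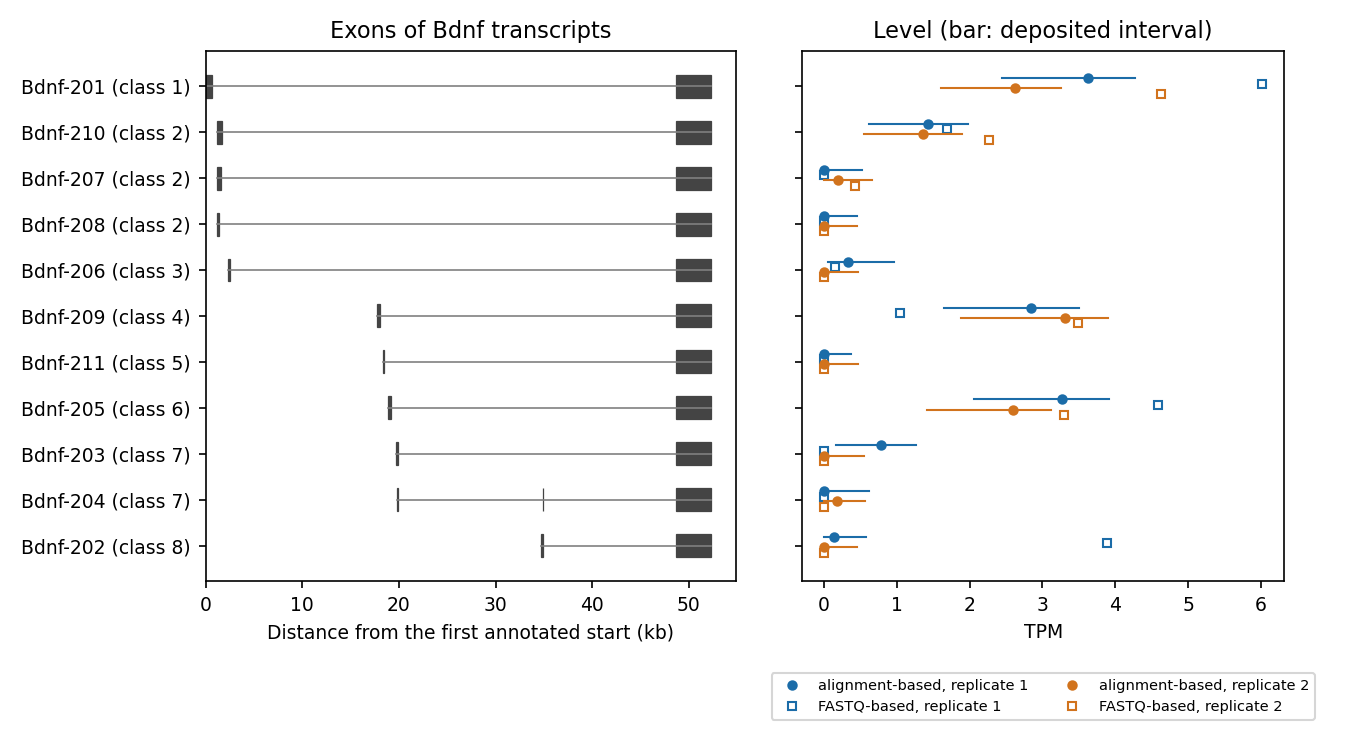
Left, exons of the 11 Bdnf transcripts by distance from the first annotated start (kb). Right, TPM of each transcript by library and quantification, with bars for the deposited interval of the alignment-based value. The deposited intervals of Bdnf-201, Bdnf-209 and Bdnf-205 overlap between libraries, and Bdnf-202 stands at 3.89 TPM in 1 FASTQ-based value alone.

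The most abundant transcript was compared between libraries and quantifications for the 5 members with several transcripts, Ngfr having a single one. It differed between libraries for 1 of 5, Bdnf, led by Bdnf-201 in replicate 1 and Bdnf-209 in replicate 2. The same was true of 12.4% of 12242 detected genes of any type with several transcripts. Between quantifications it differed in at least 1 library for 2 of 5, Bdnf and Ntf3, against 34.8% of those genes. Ntf3-203 held all of the Ntf3 estimate in the alignment-based table, with 1.16 and 1.33 TPM. The FASTQ-based table gave Ntf3-203 77.0% and 33.7%, Ntf3-201 23.0% and 44.2%, and Ntf3-202 0% and 22.1%. With about 30 counts per library, the 3 Ntf3 transcripts, which differ in their 5′ exons, could not be put in an order.

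Full-length and truncated TrkB transcripts were close to parity. The full-length forms Ntrk2-201 and Ntrk2-207, both with 821 codons, summed to 92.9 and 88.5 TPM. The truncated forms summed to 86.1 and 94.4 TPM. The log2 ratio of truncated over full-length was -0.11 in replicate 1 and 0.09 in replicate 2 (-0.01 ± 0.14), so the direction differed between the libraries and the mean lay within their spread of 0. FASTQ-based ratios were -0.35 and -0.02. By expected counts, in which longer transcripts weigh more, the ratio was -0.73 and -0.53, and between the most abundant transcripts of each class it was -0.35 ± 0.14, both lower for the truncated class. In TPM over whole classes no difference was detectable with these 2 libraries, and the result depended on the measure.

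The T1 form alone was lower than the full-length form. T1 transcripts, Ntrk2-202 and Ntrk2-204 with 476 codons, summed to 60.3 and 64.3 TPM, or 33.0% and 34.3% of the gene. Full-length transcripts were 1.54-fold and 1.38-fold higher than T1 in the alignment-based table and 1.53-fold and 1.27-fold higher in the FASTQ-based one. The direction was shared by both libraries and both tables, with a log2 ratio of T1 over full-length of -0.54 ± 0.11. Other truncated ends, which part at the same codon, summed to 25.8 and 30.1 TPM. Most of that was Ntrk2-205, whose end is printed above, with 21.5 and 24.6 TPM, but 13.0 and 17.7 TPM in the FASTQ-based table. The parity of truncated and full-length TrkB thus depended mainly on Ntrk2-205, a model of 2284 nt against 8744 nt for Ntrk2-201.

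The TrkB transcripts of at least 5% of the gene had similar levels in both libraries. Ntrk2-201, the leading transcript, had 65.4 and 60.8 TPM, with deposited intervals of 61.8 to 65.0 and 56.9 to 60.2 that did not overlap. Ntrk2-202 had 47.9 and 51.2 TPM, with intervals of 45.0 to 47.8 and 47.7 to 50.9 that overlapped slightly. Several printed TPM lie above their own deposited interval, so these intervals are not centred on the value. Ntrk2-207 and Ntrk2-204, which share an upstream first exon, had 27.5 and 27.7 TPM and 12.4 and 13.1 TPM. Their FASTQ-based values were higher, at 56.3 and 47.0 TPM for Ntrk2-207 and 29.4 and 32.9 TPM for Ntrk2-204. The annotation thus pairs the upstream exon with a full-length and a T1 end. Whether single RNAs in these libraries joined them was not tested.

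TrkC showed the same near parity with other transcripts. Full-length Ntrk3-201, Ntrk3-205 and Ntrk3-206 (825, 839 and 864 codons) summed to 26.2 and 29.8 TPM. The truncated Ntrk3-202 (612 codons), the leading transcript of the gene, had 25.7 and 26.4 TPM. The log2 ratio of truncated over full-length was -0.03 and -0.17 (-0.10 ± 0.10), and 0.04 and -0.11 in the FASTQ-based table. The FASTQ-based direction differed between the libraries, so in TPM over whole classes no difference was detectable here either. The single transcript Ntrk3-202 was higher than Ntrk3-201, the most abundant full-length transcript, in both libraries (log2 ratio 0.67 ± 0.10). By expected counts the full-length class was 3.47-fold higher, because Ntrk3-201 is 19703 nt long and Ntrk3-202 3977 nt, and longer RNAs give more fragments.

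A sizeable part of full-length TrkC carried the kinase-region inserts. Ntrk3-201, without an insert, had 15.3 and 17.4 TPM. Ntrk3-205, with the 14-codon insert, had 9.23 and 10.6 TPM. Ntrk3-206, with both inserts, had 1.70 and 1.79 TPM, and its FASTQ-based values of 6.01 and 6.59 lay above the deposited intervals (0.563 to 3.51 and 0.560 to 3.99). Forms with an insert held 41.7% of full-length TPM in each library, and 36.6% and 37.8% in the FASTQ-based table. Insert-bearing transcripts were therefore the minority in all 4 values. Their share of expected counts was 8.63% and 8.64%. The models of Ntrk3-205 (2678 nt) and Ntrk3-206 (2774 nt) end shortly after the stop codon. Among the full-length forms only Ntrk3-201 can therefore take reads from the long 3′ end.

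Sortilin transcripts were mainly of 1 kind. Sort1-201 (825 codons) had 106.9 and 109.4 TPM. Sort1-203, with the 33 extra codons printed above, had 17.2 and 16.7 TPM. It held 13.8% and 13.2% of coding Sort1 TPM in the alignment-based table and 18.6% and 19.5% in the FASTQ-based one. The shorter form was higher in both libraries and both tables, by 6.23-fold and 6.56-fold in the alignment-based values, and the share differed more between quantifications than between animals.

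**Figure D3:**
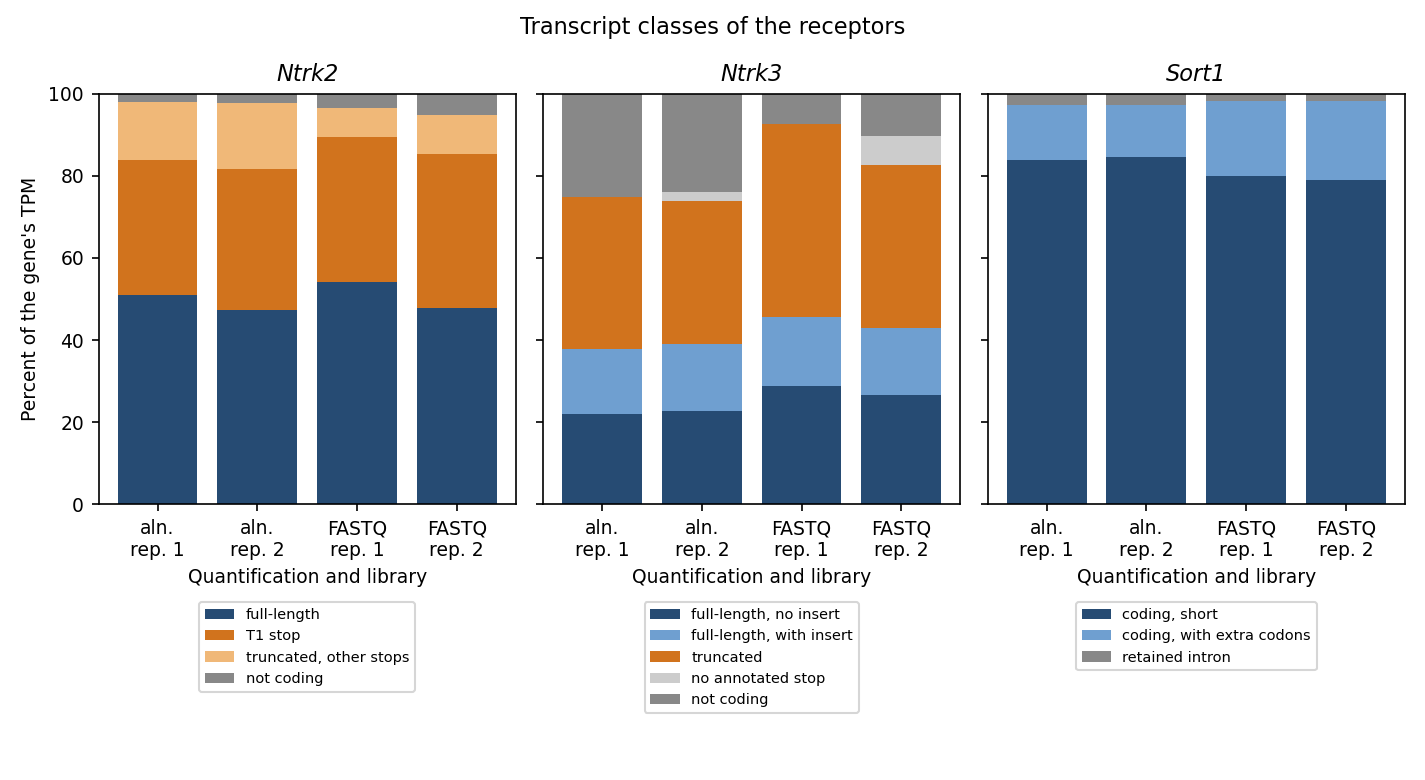
Stacked bars give the percent of each receptor gene's TPM by transcript class, for the alignment-based (aln.) and FASTQ-based values of each library (no error bars, each bar is 1 library). Full-length Ntrk2 takes 47.2% to 54.1% of the gene, T1 33.0% to 37.5%, and the not-coding part of Ntrk3 is 25.2% and 23.9% in the alignment-based bars against 7.43% and 10.3% in the others.

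The animals were compared gene by gene on CPM with TMM factors from edgeR, and a gene was called when the fold was at least 1.5 at a mean of at least 1 CPM. Intervals are exact 95% intervals of a ratio of counts and cover counting error alone. Of the 6 members 1 was called, Ngfr, against 5.25% of 15683 genes tested (1.8% higher in replicate 1 and 3.44% higher in replicate 2). Ngfr was 2.27-fold higher in replicate 1 (1.33 to 4.02), on 51 and 20 counts. It passed the filter on low counts only through replicate 1, with 1.66 CPM against 0.729 in replicate 2, so its call rests on that library. Bdnf was 1.28-fold higher in replicate 1 (1.16 to 1.41), under the fold but beyond counting error. Ntrk2 was 1.07-fold (1.05 to 1.09) and Sort1 1.04-fold (1.02 to 1.07) higher in replicate 1. Ntrk3 stood at 0.951 of replicate 2 (0.924 to 0.980) and Ntf3 at 0.921 (0.534 to 1.59). The abundant receptors thus differed by a few percent between the animals, while the interval of Ntf3 was too wide to place it.

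**Figure D4:**
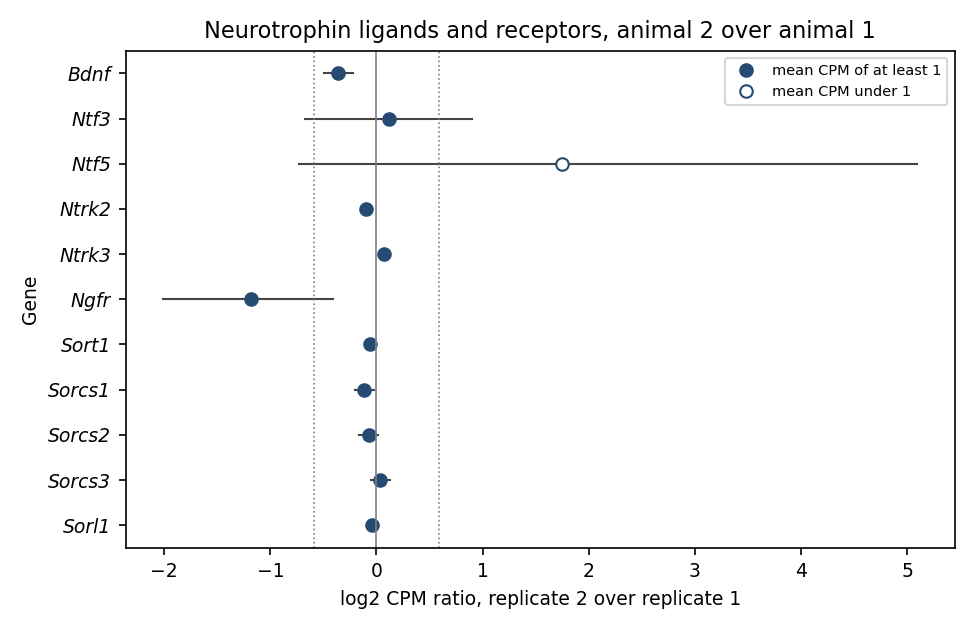
Log2 CPM ratio of replicate 2 over replicate 1 for neurotrophin ligands and receptors, with exact 95% intervals of the count ratio as bars, dotted lines at a 1.5-fold difference and an open circle for Ntf5, which is under 1 CPM. Bdnf lies left of 0 within the dotted lines, Ngfr lies beyond them at 2.27-fold higher in replicate 1, and Ntrk2, Ntrk3 and Sort1 lie next to 0.

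The wider pathway was mostly expressed, and 2 of its genes were called between the animals. It comprised 98 genes for ligands, receptors, proneurotrophin processing, Trk adaptors, p75 partners, downstream kinases and regulators of Bdnf transcription, of which 87 were detected. Of 91 tested, 2 (2.20%) were called, both higher in replicate 1: Ngfr, the member already called above, and Npas4. Over all 15683 genes tested 5.25% were called, with 1.8% higher in replicate 1 and 3.44% higher in replicate 2. The median log2 ratio of replicate 2 over 1 was -0.04, against -0.02 over all genes tested. Npas4, an activity-induced transcription factor that acts on Bdnf promoters, had 10.7 and 3.73 TPM and was 2.98-fold higher in replicate 1 (2.57 to 3.47). Bdnf, which was under the fold, was also higher in replicate 1, by 1.28-fold. A link between the differences of Npas4 and Bdnf was not tested.

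Within the lists the most abundant genes were steady. Cpe, carboxypeptidase E, which helps sort and trim peptide precursors, had 1005 and 1076 TPM. In that list 9 of 15 genes were detected, and the matrix proteases Mmp3 and Mmp7 had 0 counts, which allows up to 0.0962 and 0.111 CPM. Kidins220, a scaffold of Trk receptors, had 124.9 and 140.5 TPM, and Nedd4, a ubiquitin ligase, had 125.4 and 124.9. Of the 25 Trk adaptors and regulators 24 were detected and 0 were called by the fold, against 5.25% of all 15683 genes tested. Lingo1, a membrane partner of p75, had 211.9 and 221.0 TPM, and Maged1, which binds the intracellular part of p75, had 193.5 and 189.3. These partners were thus far above Ngfr itself, with 9 of 11 genes of the list detected. Camk2a, a calcium-dependent kinase of neurons, had 1103 and 1138 TPM, and all 23 downstream kinases were detected, with 0 called. In lists of 25 and 23 genes, 0 calls lie near the share of 5.25% over all genes, so they do not set these lists apart. Mef2c and Mef2d, transcription factors of neurons, had 300.3 and 316.9 TPM and 92.0 and 96.8 TPM, and all 14 genes of that list were detected.

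Several marker lists also differed between the animals. Of 16 immediate early genes 12 passed the fold towards replicate 1, at a median log2 ratio of -0.80 and summed TPM of 508 and 322, Npas4 among them. Of 11 striatal neuron markers 8 were called higher in replicate 1, with a median of -0.68. Of 10 markers of myelinating oligodendrocytes 5 were called higher in replicate 2, with a median of 0.58 and summed TPM of 1570.4 and 2474. Among 7 choroid plexus and ependymal markers 3 could be tested and 1 was called, Ttr, at 96.0 and 4.79 TPM. Fewer markers of other lists passed the fold: of 10 astrocyte markers 0 were called, with a median of -0.07, and of 9 neuron markers 1 was called, Gad2, at 60.7 and 43.4 TPM. Over all 15683 genes tested 5.25% were called. No marker of these lists had 0 counts in both libraries. The part of tissue composition or neuronal activity in the Bdnf and Ngfr differences was not tested.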

How the data were processed

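Per the labels, total RNA was sequenced from 2 cortex samples. Per the description deposited with the files, the authors quantified each library on mm10 with GENCODE M21, from alignments and from FASTQ files. Neither source names the aligner or the quantifier. Alignment-based tables as deposited hold expected counts, which need not be whole, TPM, and for each transcript its percent of the gene. The bounds of the deposited TPM intervals were treated as a score, used to describe values only. The deposited FASTQ-based table holds estimated counts and TPM per transcript, summed here per gene or class. Entries named by a number alone held 6.39e-06% and 1.81e-05% of expected counts and stayed out, as did spike-ins and controls (0.350% and 0.378%).

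Bdnf classes are transcripts with overlapping first exons. Trk classes follow the annotated stop codon. Expected counts were rounded, and scaled with edgeR 4.0.16 TMM factors (0.987 and 1.01) in R 4.3.3; edgeR was used for scaling alone, and DESeq2 1.42.0 size factors were an alternative. Count ratios have exact conditional intervals of 95% (scipy 1.17.1, Python 3.11.15), tested on simulated counts. Reads carry no molecular identifiers, so intervals and the floor of 3 counts (0.0962 and 0.111 CPM) cover counting error only. Named are the members with each transcript of at least 5% of the gene in either library and quantification, the 2 most abundant genes of each pathway list, genes of the pathway called between animals, and the ligands and receptors; some of the genes this rule names are not reported here, and other named genes and transcripts were chosen after their values were seen. With 2 libraries no likeness of pattern between genes can be measured. Members, lists and alternatives were chosen with earlier results of these data known. Counting by strand is not given in the sources used here, so reads of overlapping genes cannot be told apart.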

Additional observations from a re-analysis of the deposited data

How the results depend on the processing

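Of the summary values recomputed under the alternatives, 26 moved by more than 1 SD over the libraries or, for counts of genes, by more than 1.5 times. The other 59 did not, among them the values with 1 replicate left out. FASTQ-based TPM raised the levels to 15.7 (Bdnf), 1.92 (Ntf3), 275.9 (Ntrk2), 88.0 (Ntrk3), 0.842 (Ngfr) and 181 (Sort1). CPM, without a length correction, gave 29.6, 1.02, 732, 307, 1.19 and 562 in that order, with Ngfr above Ntf3 in replicate 1 only. CPM is another unit, and the median detected protein-coding gene was 1.55 and 1.52 times higher in FASTQ-based TPM. The moves of gene levels therefore include a change of scale. The FASTQ-based shares of Bdnf TPM were 33.7% for class 1, 15.3% for class 4, 24.9% for class 6, 0.0120% for class 7 and 11.2% for class 8. The log2 ratio of truncated over full-length TrkB was -0.18 with FASTQ-based TPM, -0.63 with estimated counts and -0.35 with the most abundant transcript of each class. For T1 over full-length it was -0.86 with estimated counts and -0.35 with the most abundant transcripts. For TrkC it was -1.79 with estimated counts and 0.67 with the most abundant transcripts, since the full-length class is spread over 3 transcripts. Without the filter on low counts 9013 of 28218 genes tested were called between the animals. At a fold of at least 2 the number was 155 of 15683. Ngfr was called in each of these settings, and with DESeq2 factors, library totals and FASTQ-based counts. All of them use the reads of the same 2 libraries, so these calls of Ngfr are not independent of each other. Leaving out either replicate leaves the value of the other, which the text gives; with 2 libraries this cannot move a mean by 1 SD. Restricting Bdnf to protein-coding transcripts changes nothing, since all 11 are coding. No paired analysis was possible because the libraries form 1 group. Depth limits Ntf3, Ngfr and Ntf5 most, and transcripts that share nearly all their bases are limited by assignment more than by depth.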

Other observations

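Transcripts that keep an intron differed between the animals in opposite directions for the 2 Trk genes; they were noticed in the data and were not tested. Ntrk2-210 had 2.94 TPM in replicate 1 and 1.53 in replicate 2, with deposited intervals of 2.46 to 3.25 and 1.18 to 1.81. Ntrk3-204 had 2.16 and 4.25 TPM, with intervals of 1.58 to 2.67 and 3.32 to 5.02. Neither pair of intervals overlapped. The FASTQ-based table gave the same directions, 5.02 and 2.54 TPM for Ntrk2-210 and 3.00 and 6.02 TPM for Ntrk3-204. In Sort1 the intron-keeping Sort1-202 was level, at 3.63 and 3.48 TPM. C630044B11Rik, a gene model on the same strand inside Ntrk2, had 202 and 109 expected counts, in the direction of Ntrk2-210. Same-strand models of the other genes did not follow in this way. In Ntrk3, Gm44607 had 7 and 6 expected counts and Gm39038 had 8 and 3, against the direction of Ntrk3-204. In Sort1, Gm43099 had 109 and 152, where Sort1-202 was level.

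Ntrk3-220, a non-coding model of 435 nt at the 5′ end of Ntrk3, had 11.8 and 11.3 TPM from 82.6 and 66.2 expected counts, and was listed at 0 in the FASTQ-based table. It held 17.0% and 14.8% of alignment-based Ntrk3 TPM.

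Antisense genes that overlap the members had few counts. Gm45346, opposite Bdnf, had 7 and 6 expected counts, Gm9885, opposite Ntrk3, had 54 and 46, and Gm12523, opposite Sort1, had 1 and 4.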
